A study of Mus musculus with 8 samples.

Results

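The genes described here are 5 subunits of the transcription factor NF-kappaB (Rel, Rela, Relb, Nfkb1 and Nfkb2), 3 inhibitor genes of the IkappaB family (Nfkbia, Nfkbid and Nfkbiz), and 2 genes that NF-kappaB is known to induce and that act on its signalling (Tnfaip3 and Traf1). They were chosen by name, as 10 of the 54837 genes in the count table, and all 10 were among the 18851 genes tested. The choice, and that of the gene lists used below, was made with earlier results of these data known. Shares of all genes set beside their counts are therefore a description and no test of the choice. RNA was sequenced from CD4 T cells sorted from the spleens of mice given tamoxifen on 5 consecutive days. GFPhi (n = 3) came from mice with FSF-TIM-3 beside Foxp3-eGFP-Cre-ERT2 and were sorted as positive for TIM-3, FLAG, GFP and FoxP3. GFPlow (n = 3) came from mice of that genotype too, and were positive for TIM-3 and FLAG but negative for GFP and FoxP3. WT (n = 2) came from Foxp3-eGFP-Cre-ERT2 mice and were negative for TIM-3 and FLAG and positive for GFP and FoxP3. All 3 groups thus carried the Foxp3-eGFP-Cre-ERT2 allele, which places eGFP and a tamoxifen-activated Cre recombinase under the Foxp3 gene, and all received tamoxifen. In the sort GFPhi and GFPlow differed in GFP and FoxP3, whereas GFPhi and WT differed in genotype and in TIM-3 and FLAG. The labels do not say whether libraries of a group came from separate mice, so the p-values measure the spread between these libraries only.

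NF-kappaB factors are dimers of Rel-family subunits that IkappaB proteins hold in the cytoplasm of resting cells. Signals from the T cell receptor, CD28 and receptors of the tumour necrosis factor family lead to the breakdown of the inhibitor, and the freed dimers enter the nucleus and induce, among others, the genes of their own inhibitors. In regulatory T (Treg) cells, the FoxP3+ CD4 cells that restrain immune responses, the subunit c-Rel, which Rel encodes, is needed for normal development in the mouse thymus.

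The libraries held 44446215 to 55388756 counts. Havcr2, which encodes TIM-3, stood at 1077 to 1791 CPM (the count relative to the library total, scaled by the TMM method) in GFPhi, 127 to 538 CPM in GFPlow, and 0.876 and 0.172 CPM in WT. Foxp3 stood at 60.2 to 81.0 CPM in GFPhi, 1.97 to 4.82 CPM in GFPlow, and 41.7 and 63.2 CPM in WT. The level of Havcr2 thus also separated GFPhi from GFPlow, and it cannot be told apart from FoxP3 in that comparison. WT library 1 stood apart, with 18599 genes with counts against 21248 to 22185 in the others, and with 15.2% of counts from ribosomal protein genes against 6.12% to 6.97%. Xist, which is expressed from the inactive X chromosome and was chosen after its values were seen, stood at 237 CPM in GFPhi library 3, 184 CPM in GFPlow library 3 and 242 CPM in WT library 2, while no other library exceeded 0.263 CPM. Ddx3y, a Y-linked gene chosen likewise, stood at 6.16 CPM in WT library 2, was at 0 in library 3 of both GFPhi and GFPlow, and stood at 170 to 229 CPM elsewhere. The 2 WT libraries thus differed from each other both in the composition of their counts and in these genes, and what each contributes to a difference between them cannot be told apart. Counts of genes called against WT are therefore given also with each WT library alone.

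The lead result was on Rel. In the fit of all 8 libraries it was the 1 gene of the 10 called as higher in GFPhi than in GFPlow, against 1.63% of all genes tested. It was also the 1 gene called as lower in GFPlow than in WT, where 2.23% were called as lower. Neither call held with the library number as a replicate block. Every GFPhi library also lay above every GFPlow library for Relb, Nfkb1, Nfkb2, Nfkbia, Nfkbiz, Tnfaip3 and Traf1, as for 16.0% of all genes tested, and these 7 passed the test in the fit of the 6 GFPhi and GFPlow libraries, which called 6.87% of genes as higher. Rela and Nfkbid did not pass in any alternative of this comparison. In the fit of all 8 libraries no gene of the 10 passed between GFPhi and WT, whereas 8 did with WT library 1 as the only WT library, against 40.1% of all genes.

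RefSeq (GRCm38.p6) promoter sequences were matched by symbol for 7 of the 10 genes, with 12 windows that run from 250 bases before to 50 bases after a start. They are shown because several of these genes are known to be induced by the factor that others of them encode. Windows were searched on both strands for the kappaB consensus motif, the site that NF-kappaB dimers bind, named here without its ambiguous letters. A match was found in 7 of the 12 windows, from Rel, Nfkb2, Nfkbia, Nfkbid and Tnfaip3, whereas 2764 of 32544 windows of all genes (8.49%) held one. No match was found in the windows of Rela and Traf1. Overlapping matches and matches on both strands were counted once per window, and a match is a description of the letters only. The 250 bases before the start are given 5′ to 3′ for Rel, Nfkbia, 1 window each of Nfkb2 and Nfkbid, and, for contrast, Rela, with matches in capitals.
Rel, chr11:23770970-23771219, minus strand: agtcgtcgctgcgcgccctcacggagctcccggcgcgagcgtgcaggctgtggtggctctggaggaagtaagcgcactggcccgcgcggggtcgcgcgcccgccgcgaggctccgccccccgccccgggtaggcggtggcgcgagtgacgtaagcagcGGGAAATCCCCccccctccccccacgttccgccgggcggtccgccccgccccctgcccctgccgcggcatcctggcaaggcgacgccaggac
Nfkbia, chr12:55492648-55492897, minus strand: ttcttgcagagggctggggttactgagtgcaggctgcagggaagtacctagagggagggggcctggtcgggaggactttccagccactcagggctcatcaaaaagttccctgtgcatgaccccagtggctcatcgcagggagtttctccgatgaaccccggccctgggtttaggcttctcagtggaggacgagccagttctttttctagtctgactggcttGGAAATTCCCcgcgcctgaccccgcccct
Nfkb2, chr19:46304487-46304736, plus strand: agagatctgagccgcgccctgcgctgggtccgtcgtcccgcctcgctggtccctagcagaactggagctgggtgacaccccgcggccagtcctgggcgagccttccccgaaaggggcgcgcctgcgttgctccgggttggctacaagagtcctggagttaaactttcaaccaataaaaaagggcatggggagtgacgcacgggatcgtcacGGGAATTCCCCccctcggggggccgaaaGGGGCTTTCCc
Nfkbid, chr7:30422156-30422405, plus strand: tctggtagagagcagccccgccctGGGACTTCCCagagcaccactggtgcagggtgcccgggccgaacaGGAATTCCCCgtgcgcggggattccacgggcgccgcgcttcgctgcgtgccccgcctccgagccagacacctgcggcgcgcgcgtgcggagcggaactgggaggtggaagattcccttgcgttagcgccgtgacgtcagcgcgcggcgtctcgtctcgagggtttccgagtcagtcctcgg
Rela, chr19:5637291-5637540, plus strand: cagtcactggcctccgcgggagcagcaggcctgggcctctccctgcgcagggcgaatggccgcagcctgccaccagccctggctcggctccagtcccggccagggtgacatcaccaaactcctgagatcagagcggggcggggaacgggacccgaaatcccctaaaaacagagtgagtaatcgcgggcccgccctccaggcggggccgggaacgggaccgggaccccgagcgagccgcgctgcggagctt

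In Rel the match GGGAAATCCC began 92 bases before the start, and a second match, GGAAATCCCC, overlapped it 91 bases before the start. In Nfkbia the match GGAAATTCCC began 29 bases before the start. In this window of Nfkb2 the match GGGAATTCCC began 39 bases before the start, overlapped by GGAATTCCCC at 38, and GGGGCTTTCC began 11 bases before the start. In this window of Nfkbid the matches GGGACTTCCC and GGAATTCCCC began 226 and 181 bases before the start. Tnfaip3, whose sequence is not printed, held GGGACACCCC and GGAAATCCCC at 125 and 12 bases before the start.

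The subunit that carried the lead result was Rel (ENSMUSG00000020275, GRCm38 chromosome 11, 23736847 to 23770970, minus strand), which encodes c-Rel. Its level was 121, 82.0 and 106 CPM in GFPhi libraries 1, 2 and 3, against 49.6, 51.5 and 45.0 CPM in GFPlow libraries 1, 2 and 3, and 84.7 and 112 CPM in WT libraries 1 and 2. The GFPlow libraries were the lowest and overlapped with neither GFPhi nor WT. The mean was 103 ± 19.9 CPM in GFPhi and 48.7 ± 3.32 CPM in GFPlow (SD, n = 3 each). Rel rose in GFPhi relative to GFPlow by 1.08 ± 0.20 (log2 fold change ± SE), a 2.12-fold difference, with an adjusted p of 0.0335 (edgeR's quasi-likelihood test, Benjamini-Hochberg over all genes tested). This was 1 of 10 genes called, where 2.26% of all genes tested were called in either direction and 1.63% as higher. Leaving out any 1 of the 6 GFPhi or GFPlow libraries ended the call, with 0 of the 10 genes called in each of those fits. Fitting the library number as a replicate block ended it too. The log2 fold change of Rel nevertheless stayed between 0.95 and 1.22 over all 22 alternatives, of which 15 called it.

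The 8 genes with every GFPhi library above every GFPlow library were followed across fits. In the fit of the 6 libraries, in which 12.3% of 17056 genes were called and 6.87% as higher, 8 of the 10 were called, all as higher. With WT library 1 left out 8 were called as higher, against 5.35% of genes, and with WT library 2 left out 8 were called as higher, against 5.52%. The fold changes moved little between these fits, while the SE of Traf1, for example, was 0.32 with all 8 libraries and 0.057 with the 6. The median log2 fold change of the 10 genes was 0.69 with all 8 libraries, against 0.01 over all genes tested. In bulk RNA, fewer cells of a type and less RNA per cell cannot be told apart.

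**Figure D1:**
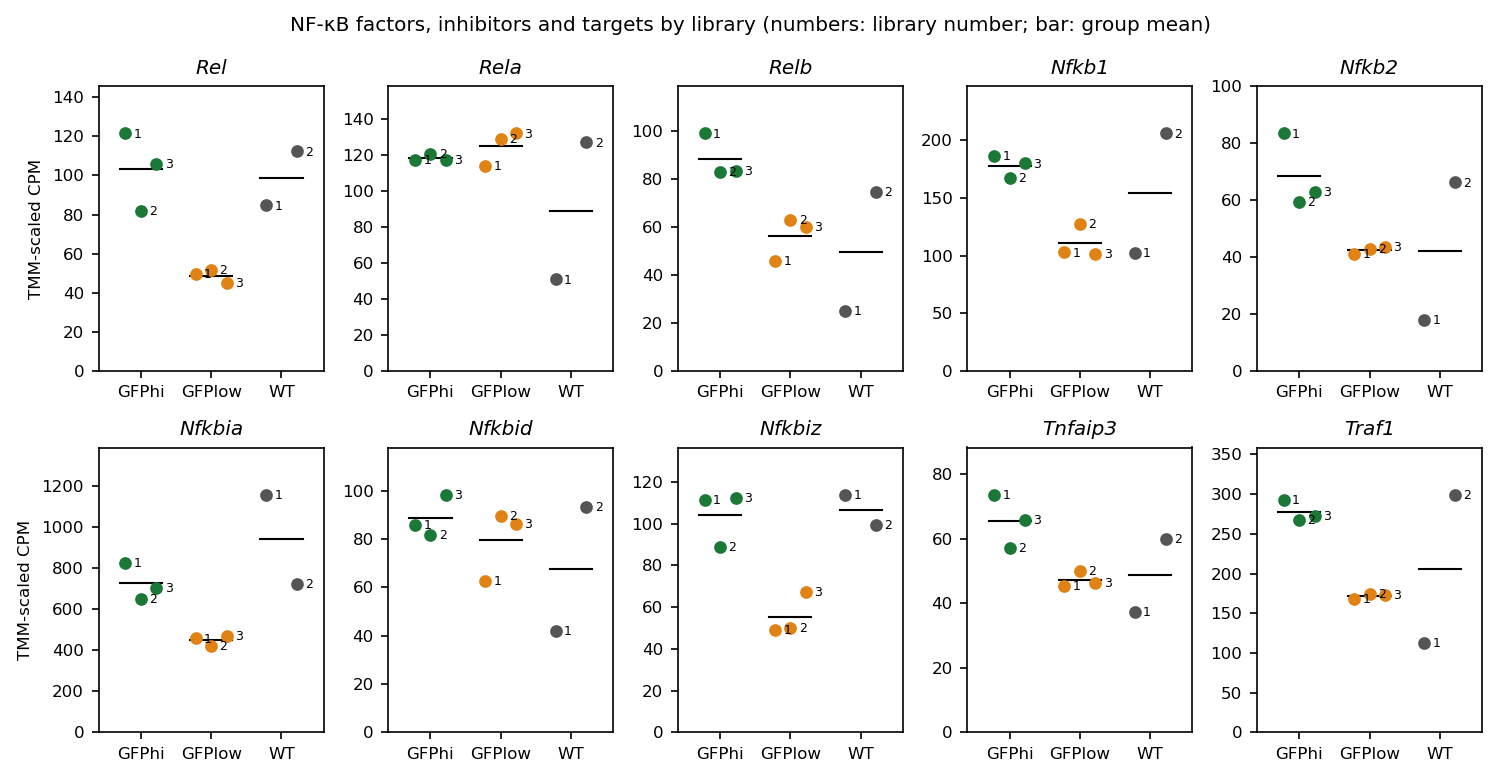
TMM-scaled CPM of each of the 10 genes (vertical axis, from 0) in every library of GFPhi, GFPlow and WT (horizontal axis), with a point per library, its library number beside it and a bar at the group mean. For Rel the GFPhi libraries lie between 82.0 and 121 CPM and the GFPlow libraries between 45.0 and 51.5 CPM, while the 2 WT libraries lie far apart for most genes.

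The other partner of the classical dimers, Rela (ENSMUSG00000024927, chromosome 19, 5637483 to 5648130, plus strand), encodes the transactivating subunit p65. It stood at 117, 120 and 117 CPM in GFPhi libraries 1 to 3, at 114, 129 and 132 CPM in GFPlow libraries 1 to 3, with 50.8 and 127 CPM in WT libraries 1 and 2. The GFPhi libraries lay within the range of GFPlow, and WT library 1 was the lowest of the 8. The log2 fold change of GFPhi over GFPlow was -0.08 ± 0.30 (edgeR adjusted p = 1.0), and -0.08 ± 0.073 in the fit of the 6 libraries (adjusted p = 0.581).

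Relb (ENSMUSG00000002983, chromosome 7, 19606217 to 19629438, minus strand) encodes the subunit of the noncanonical pathway. It stood at 99.0, 83.02 and 83.2 CPM in GFPhi libraries 1 to 3, at 46.0, 63.0 and 60.0 CPM in GFPlow libraries 1 to 3, with 24.98 and 74.6 CPM in WT libraries 1 and 2. Every GFPhi library lay above every library of the other 2 groups. The log2 fold change over GFPlow was 0.65 ± 0.36 with all 8 libraries (edgeR adjusted p = 0.609) and 0.65 ± 0.13 with the 6 (adjusted p = 0.0187).

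The precursor genes gave a like picture. Nfkb1 (ENSMUSG00000028163, chromosome 3, 135584655 to 135691547, minus strand) encodes the precursor of p50, and its span holds Gm43430, which shares no exon base with it, on the same strand. Nfkb1 stood at 186, 167 and 180 CPM in GFPhi libraries 1 to 3, at 103, 128 and 102 CPM in GFPlow libraries 1 to 3, with 102 and 206 CPM in WT libraries 1 and 2. GFPhi lay above GFPlow without overlap, and the WT libraries lay on either side of GFPhi. Its log2 fold change of GFPhi over GFPlow was 0.68 ± 0.26 with all 8 libraries (edgeR adjusted p = 0.328) and 0.68 ± 0.098 with the 6 (adjusted p = 0.00411).

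Nfkb2 (ENSMUSG00000025225, chromosome 19, 46304320 to 46312385, plus strand) encodes the precursor of p52, the partner of RelB. It stood at 83.4, 59.5 and 62.9 CPM in GFPhi libraries 1 to 3, at 41.0, 42.8 and 43.4 CPM in GFPlow libraries 1 to 3, with 18.0 and 66.2 CPM in WT libraries 1 and 2. The lowest GFPhi library lay above the highest GFPlow library, and WT library 2 lay among the GFPhi libraries with WT library 1 below all others. The log2 fold change was 0.69 ± 0.41 with all 8 libraries (edgeR adjusted p = 0.656) and 0.69 ± 0.13 with the 6 (adjusted p = 0.0142). Nfkb2 shares 299 exon bases with Psd and 531 with AC114539.1, both on the other strand, and AC114539.1 is not in the count table. Reads of these genes cannot be told apart there from the counts, and whether the counting used strand is not stated.

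On a scale per gene length (RPKM, the CPM divided by the length of the merged exons in kilobases), the subunits can be set against each other. Rela had the highest mean level of the 5 in every group, at 38.5 RPKM in GFPhi, 40.7 RPKM in GFPlow and 28.9 RPKM in WT. Of the summed RPKM of the 5 subunit genes, Rela made up 33.6%, 39.8% and 37.3% in GFPhi libraries 1 to 3, against 50.8%, 49.4% and 52.2% in GFPlow libraries 1 to 3, and 35.4% and 38.6% in WT libraries 1 and 2. The share of Rela was thus higher in every GFPlow library than in any library of the other groups. Rel made up 14.3%, 11.2% and 13.8% in GFPhi libraries 1 to 3, against 9.09%, 8.11% and 7.33% in GFPlow libraries 1 to 3, and 24.3% and 14.1% in WT libraries 1 and 2. Relb made up 20.9% to 22.4% in GFPhi, 16.2% to 19.1% in GFPlow, and 13.8% and 17.9% in WT, without overlap between GFPhi and either other group. The summed RPKM of the subunits was 98.3 to 114 in GFPhi, 73.0 to 85.0 in GFPlow, and 46.7 and 107 in WT. These shares follow from the same counts as the tests above and add no independent evidence.

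**Figure D2:**
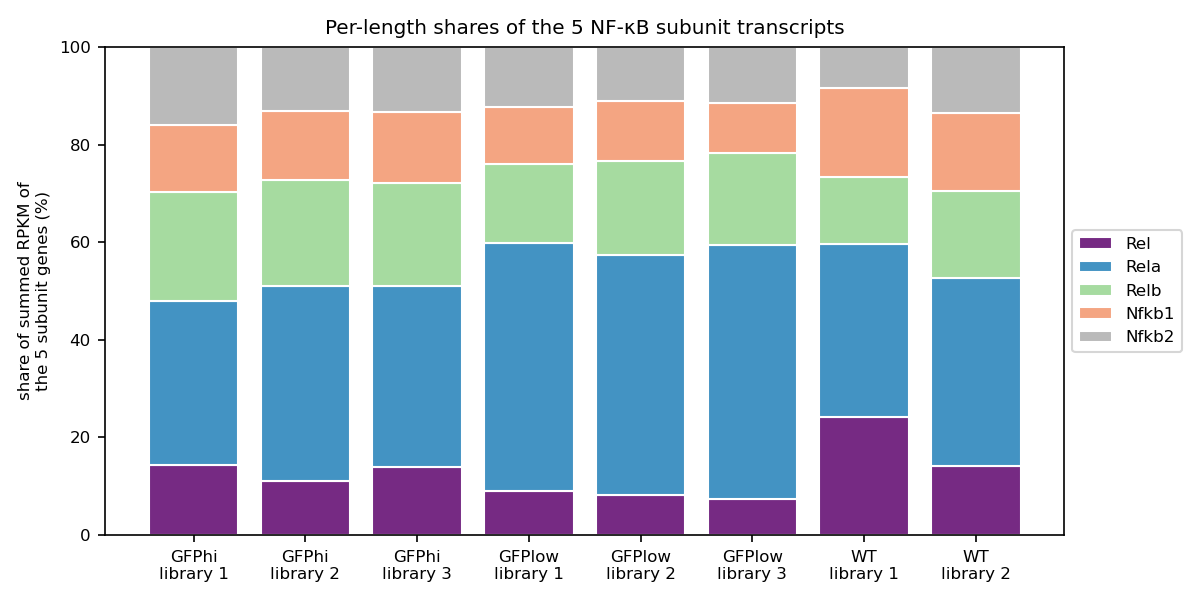
Share of the summed RPKM of the 5 NF-kappaB subunit genes (vertical axis, percent) in each of the 8 libraries (horizontal axis), with 1 coloured segment per gene. Rela takes 49.4% to 52.2% in GFPlow and 33.6% to 39.8% in GFPhi, and Rel takes 24.3% in WT library 1.

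Of the inhibitors, Nfkbia (ENSMUSG00000021025, chromosome 12, 55489410 to 55492647, minus strand) encodes IkappaB-alpha, the classical inhibitor that NF-kappaB itself induces. It stood at 825, 652 and 706 CPM in GFPhi libraries 1 to 3, at 458, 423 and 470.0 CPM in GFPlow libraries 1 to 3, with 1158 and 725 CPM in WT libraries 1 and 2. GFPlow was lowest and overlapped with neither other group. Its log2 fold change of GFPhi over GFPlow was 0.69 ± 0.22 with all 8 libraries (edgeR adjusted p = 0.209) and 0.69 ± 0.090 with the 6 (adjusted p = 0.00264). Nfkbia was the highest of the 10 genes per length in every group, at a mean of 452 RPKM in GFPhi, 280 RPKM in GFPlow and 585 RPKM in WT. Its RPKM was 10.3 to 13.4 times that of Rela in GFPhi libraries, 6.26 to 7.67 times in GFPlow libraries, and 43.5 and 10.9 times in WT libraries 1 and 2.

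Nfkbiz (ENSMUSG00000035356, chromosome 16, 55811375 to 55838899, minus strand) encodes IkappaB-zeta, an atypical nuclear member that can also activate transcription. It stood at 111, 88.8 and 112 CPM in GFPhi libraries 1 to 3, at 48.9, 50.1 and 67.3 CPM in GFPlow libraries 1 to 3, with 114 and 99.2 CPM in WT libraries 1 and 2. GFPhi and WT overlapped and every GFPlow library lay below both. The log2 fold change of GFPhi over GFPlow was 0.91 ± 0.19 with all 8 libraries, just outside the threshold (edgeR adjusted p = 0.0559), and 0.91 ± 0.15 with the 6 (adjusted p = 0.00737).

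Nfkbid (ENSMUSG00000036931, chromosome 7, 30421732 to 30428746, plus strand) encodes IkappaB-NS, another nuclear member, known in mice to act with c-Rel in the induction of Foxp3. It stood at 85.8, 81.6 and 98.3 CPM in GFPhi libraries 1 to 3, at 62.7, 89.5 and 86.3 CPM in GFPlow libraries 1 to 3, with 42.1 and 93.3 CPM in WT libraries 1 and 2. The groups overlapped. The log2 fold change of GFPhi over GFPlow was 0.16 ± 0.29 (edgeR adjusted p = 1.0).

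Tnfaip3 (ENSMUSG00000019850, chromosome 10, 19000910 to 19015657, minus strand) encodes A20, a ubiquitin-editing enzyme that ends NF-kappaB signalling. It stood at 73.6, 57.2 and 65.8 CPM in GFPhi libraries 1 to 3, at 45.5, 50.1 and 46.3 CPM in GFPlow libraries 1 to 3, with 37.4 and 59.9 CPM in WT libraries 1 and 2. GFPhi lay above GFPlow without overlap. Its log2 fold change was 0.47 ± 0.21 with all 8 libraries (edgeR adjusted p = 0.441) and 0.47 ± 0.11 with the 6 (adjusted p = 0.0282), the smallest of the 8 genes called there.

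Traf1 (ENSMUSG00000026875, chromosome 2, 34941750 to 34961772, minus strand) encodes an adaptor of receptors of the tumour necrosis factor family. It stood at 293, 267 and 273 CPM in GFPhi libraries 1 to 3, at 168, 174 and 173 CPM in GFPlow libraries 1 to 3, with 112 and 299 CPM in WT libraries 1 and 2. The libraries within GFPhi and within GFPlow lay close together, whereas the 2 WT libraries lay outside both. Its log2 fold change of GFPhi over GFPlow was 0.69 ± 0.32 with all 8 libraries (edgeR adjusted p = 0.464) and 0.69 ± 0.057 with the 6 (adjusted p = 3.7e-04).

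Ordered by mean RPKM in GFPhi, the genes ran Nfkbia (452), Rela (38.5), Nfkbid (37.8), Traf1 (31.5), Relb (22.8), Nfkbiz (20.8), Nfkb2 (14.96), Nfkb1 (14.7), Rel (13.8) and Tnfaip3 (9.07). The libraries of Rela and Nfkbid overlapped, as did those of Relb and Nfkbiz, and those of neighbours from Nfkbiz to Rel. In GFPlow the order was the same down to Nfkb1 (9.17 RPKM), after which Tnfaip3 (6.55 RPKM) and Rel (6.52 RPKM) overlapped and Rel was last. In WT, Rel had rank 6, at 13.2 RPKM.

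No gene of the 10 was called between GFPhi and WT by edgeR, and 0 of all genes tested were (0%). At an unadjusted p under 0.05 there were 0 of the 10, against 13.7% of all genes tested, and limma voom and DESeq2 also called 0, the second with an adjusted p for 4 of the 10 only and with 15.7% of the 2039 genes that had one called. Relb was the 1 gene with every GFPhi library above both WT libraries, where 15.6% of all genes lay so. The log2 fold changes of GFPhi over WT ran from -0.37 ± 0.24 for Nfkbia to 0.83 ± 0.41 for Relb, and that of Rel was 0.07 ± 0.22 (edgeR adjusted p = 0.892). With WT library 2 as the only WT library, they ran from -0.21 ± 0.14 for Nfkb1 to 0.24 ± 0.19 for Relb, 0 were called, and 7 of the 10 had the opposite sign to the fit of all 8. With WT library 1 as the only one, 8 of the 10 were called by edgeR, against 40.1% of all genes, with 7 higher in GFPhi and Nfkbia lower (log2 fold change -0.64 ± 0.12, adjusted p = 0.00344). With a lone WT library its spread was taken from the GFPhi and GFPlow libraries.

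Between GFPlow and WT, Rel fell by 1.02 on the log2 scale (SE 0.22, edgeR adjusted p = 0.0480), a level 0.494 times that of WT. It was the 1 gene of the 10 called, where 3.30% of all genes tested were called and 2.23% as lower. All GFPlow libraries lay below both WT libraries for Rel, Nfkbia and Nfkbiz, as for 19.2% of all genes tested. Nfkbia had a log2 fold change of -1.06 ± 0.24 (adjusted p = 0.0585) and Nfkbiz one of -0.94 ± 0.21 (adjusted p = 0.0541), both by edgeR. With WT library 2 alone, 4 of the 10 were called, all as lower in GFPlow, against 3.39% of genes, namely Rel (log2 fold change -1.20 ± 0.19, adjusted p = 0.0103), Nfkb1 (-0.89 ± 0.13, adjusted p = 0.00864), Nfkbia (-0.68 ± 0.12, adjusted p = 0.0182) and Traf1 (-0.79 ± 0.076, adjusted p = 0.0015). With WT library 1 alone, 8 of the 10 were called by edgeR, against 43.9% of all genes, with 5 higher and 3 lower in GFPlow. The call of Rel in the fit of all 8 libraries also ended when any GFPhi or GFPlow library was left out, and with the library number as a block. It ended too in the fit of the 5 GFPlow and WT libraries, which called 0.187% of all genes. The 3 comparisons share libraries pairwise and are not independent of each other.

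**Figure D3:**
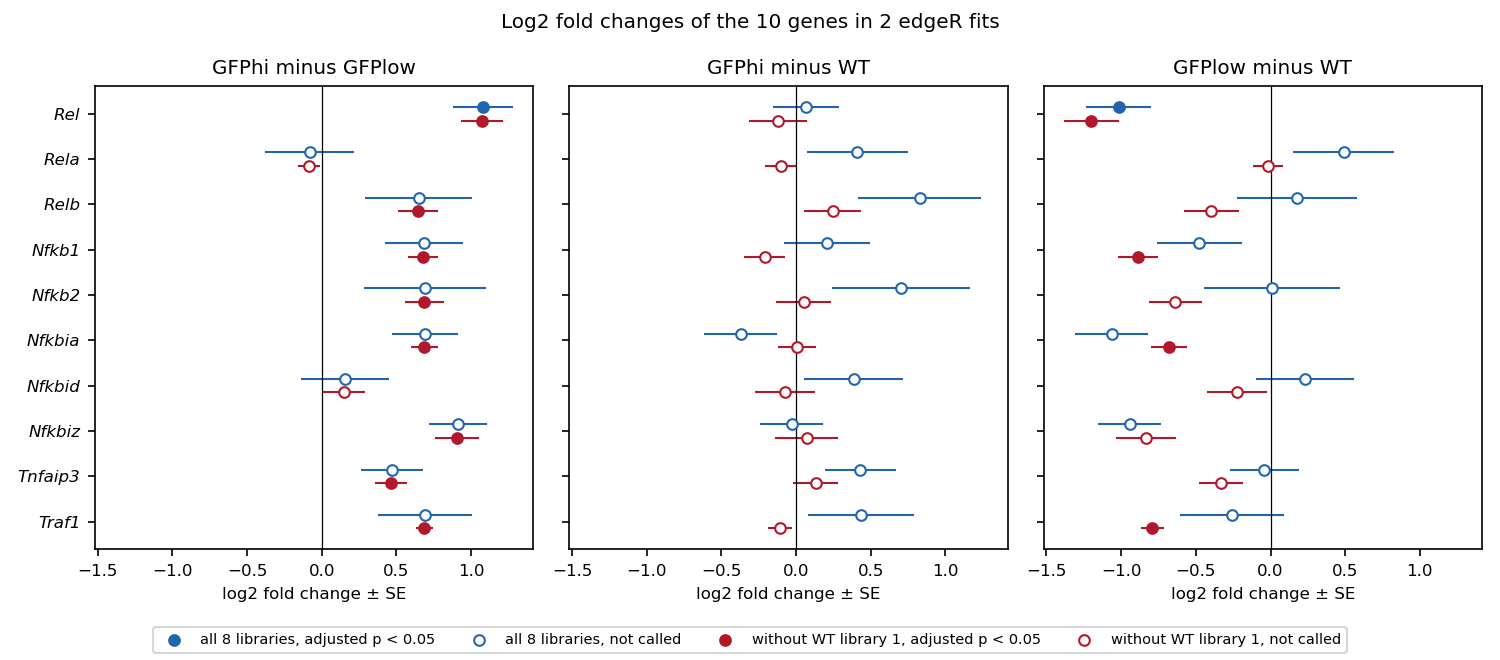
Log2 fold changes with SE (horizontal axis) of the 10 genes (rows) in the 3 comparisons (panels), from the edgeR fit of all 8 libraries (blue) and the fit without WT library 1 (red), filled where the adjusted p was under 0.05. Rel is filled in blue at 1.08 for GFPhi over GFPlow and at -1.02 for GFPlow over WT, and the red values of GFPhi over WT lie between -0.21 and 0.24.

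Genes of the same pathway were described from lists by role. Of 16 receptors tested that signal to NF-kappaB, 5 rose and 0 fell in GFPhi relative to GFPlow in the fit of all 8 libraries, with a median log2 fold change of 0.87, against 2.26% of all genes called. Tnfrsf4, which encodes the costimulatory receptor OX40, averaged 1090 CPM in GFPhi and 149.8 CPM in GFPlow (log2 fold change 2.86 ± 0.25, edgeR adjusted p = 0.00215). Tnfrsf9, which encodes 4-1BB, averaged 312 CPM in GFPhi and 44.2 CPM in GFPlow (2.82 ± 0.23, adjusted p = 0.00188). Tnfrsf18, which encodes GITR, averaged 600.5 CPM in GFPhi and 181 CPM in GFPlow (1.73 ± 0.25, adjusted p = 0.0119). Tnfrsf1b, the gene of the second tumour necrosis factor receptor, rose as well, at 131 CPM in GFPhi and 46.2 CPM in GFPlow (adjusted p = 0.0303), and so did Il1rl1, that of the interleukin-33 receptor ST2, at 22.1 CPM in GFPhi and 3.61 CPM in GFPlow (adjusted p = 0.0289).

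The adaptors and kinases that link these receptors to the factor showed 0 of 27 called in the fit of all 8 libraries, with a median of -0.05. An unadjusted p under 0.05 was reached by 2 of them, against 11.6% of all genes, and DESeq2 called 2, against 7.31%. Limma voom called 5, and its count over all genes is given in the section on processing at the end. The fit of the 6 libraries by edgeR called 1 as higher and 4 as lower, against 6.87% and 5.48% of all genes. Malt1, which encodes a protease that acts below the T cell receptor, was 1 of the 4. It averaged 52.1 CPM in GFPhi and 89.3 CPM in GFPlow (log2 fold change -0.78 ± 0.24, edgeR adjusted p = 0.184 with all 8 and 0.0136 with the 6). Birc3, a ubiquitin ligase gene, was the 1 called as higher with the 6 (adjusted p = 0.0287), at 165 CPM in GFPhi and 122 CPM in GFPlow.

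Of 21 other inhibitors and regulators, 1 rose and 0 fell with all 8 libraries, with a median of 0.18, against 1.63% of all genes called as higher, and 5 were called as higher with the 6, against 6.87%. The 1 was Tank, an inhibitory adaptor gene, at 325 CPM in GFPhi and 159 CPM in GFPlow (log2 fold change 1.03 ± 0.18, edgeR adjusted p = 0.0259). Of 26 other known target genes tested, 4 rose and 0 fell with all 8 libraries, with a median of 0.47, and 15 were called as higher and 1 as lower with the 6, beside the same shares of all genes. Il2ra, the gene of the high-affinity interleukin-2 receptor chain CD25, averaged 577.5 CPM in GFPhi and 11.7 CPM in GFPlow (5.63 ± 0.35, adjusted p = 0.00103). Cd83, an activation marker gene, averaged 317 CPM in GFPhi and 26.9 CPM in GFPlow (3.56 ± 0.28, adjusted p = 0.00188). Lta, the gene of lymphotoxin-alpha, and Ebi3, that of a subunit of interleukin-35, also rose, by log2 fold changes of 2.16 ± 0.16 and 2.91 ± 0.40. Il2ra and the receptor gene Tnfrsf18 also stand in the list of Treg markers, and Bcl2a1b and Bcl2a1d in the target list are near-identical copies whose counts are uncertain.

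**Figure D4:**
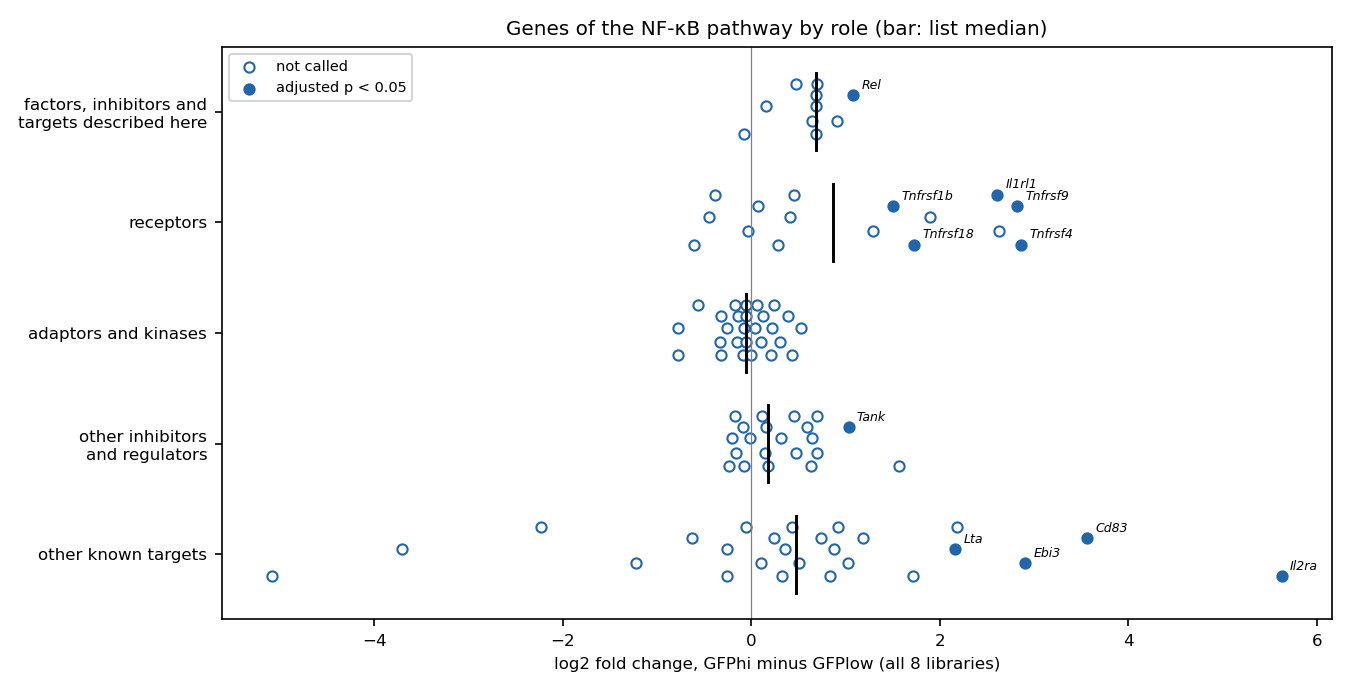
Log2 fold change of GFPhi over GFPlow from the fit of all 8 libraries (horizontal axis) for each gene tested of the 10 described and of 4 lists by role (vertical axis), filled where the edgeR adjusted p was under 0.05, with a black bar at the list median. The medians are 0.69 for the 10 genes, 0.87 for receptors, -0.05 for adaptors and kinases, 0.18 for other inhibitors and regulators, and 0.47 for other known targets.

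In GFPhi relative to WT, 0 of the 90 genes tested in these lists were called by edgeR, DESeq2 or limma voom, as 0 of all genes were by edgeR, and 17 of the 90 had an unadjusted p under 0.05, against 13.7% of all genes. DESeq2 gave an adjusted p for 26 of the 90. These counts used all 8 libraries. With WT library 2 as the only WT library, edgeR again called 0 genes of each list, whereas with WT library 1 alone it called 10 receptors as higher in GFPhi and 2 as lower, 22 adaptors and kinases as higher and 1 as lower, 10 other regulators as higher and 5 as lower, and 8 targets as higher and 6 as lower, against 40.1% of all genes. In GFPlow relative to WT, edgeR's fit of all 8 libraries called 1 receptor as higher and 3 as lower, 0 adaptors and kinases, 1 other regulator as lower, and 8 target genes as lower, against 3.30% of all genes. Of the 27 adaptors and kinases, 9 had an unadjusted p under 0.05 by edgeR in this fit, against 4722 of all 18851 genes tested. DESeq2 called 7 of the 27, against 18.3% of all genes with an adjusted p, and limma voom called 0. With WT library 2 alone, edgeR called 1 receptor as higher and 4 as lower, 2 adaptors and kinases as higher, 2 other regulators as lower and 9 targets as lower, against 5.88% of all genes. With WT library 1 alone, it called 7 receptors as higher and 4 as lower, 19 adaptors and kinases as higher and 1 as lower, 9 other regulators as higher and 5 as lower, and 6 targets as higher and 10 as lower, against 43.9% of all genes. With all 8 libraries, Tnfrsf4, Tnfrsf9, Tnfrsf18, Tank, Il2ra, Cd83, Lta and Ebi3 were among those that fell, with log2 fold changes from -5.66 for Il2ra to -1.31 for Tank.

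Cell identity moved with the GFPhi and GFPlow comparison. All 8 Treg marker genes listed were called as higher in GFPhi with all 8 libraries, against 1.63% of all genes tested. Among them is Foxp3, by whose product the cells were sorted. The summed level of the 8 was 3060 to 3183 CPM in GFPhi, 445 to 562 CPM in GFPlow, and 5260 and 3581 CPM in WT. The 6 genes that define CD4 T cells summed to 4716 to 5003 CPM in GFPhi, 5446 to 5670 CPM in GFPlow, and 9606 and 5181 CPM in WT. Treg identity cannot be told apart from the presence of GFP and FoxP3 that defined the sort.

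Markers of other cells were also measured beside these results. The 10 B cell markers summed to 893 to 1092 CPM in GFPhi, 851 to 992 CPM in GFPlow, and 748 and 1007 CPM in WT, mostly from Ighm. Of the 7 tested, 2 were called as higher in GFPhi than in GFPlow, against 1.63% of all genes. The median log2 fold change of the 7 was nevertheless -0.06 with all 8 libraries, and only 3 of the 7 lay above 0. With the 6 libraries, Cd79b (log2 fold change 2.95 ± 0.48, edgeR adjusted p = 0.00691) and Cd74 (2.74 ± 0.11, adjusted p = 2.5e-05) were called as higher, against 6.87% of all genes. Ms4a1, the gene of the B cell antigen CD20, was at 0.828 CPM or less in every library. These 3 genes were chosen after their values were seen. The 8 myeloid markers summed to 1.62 to 28.1 CPM in GFPhi, 6.56 to 240 CPM in GFPlow, and 9.25 and 34.1 CPM in WT. The highest sum, in GFPlow library 3, came mainly from Lyz2 at 197 CPM. Nfkbiz was higher in that library, at 67.3 CPM, than in the other GFPlow libraries. Of the 7 tested, edgeR called 0 between GFPhi and GFPlow, against 2.26% of all genes. An unadjusted p under 0.05 was reached by 2, against 11.6% of all genes. DESeq2 called 0, against 7.31%, and limma voom called 1 (its count over all genes is given at the end). The 8 dendritic markers summed to 511 to 696 CPM in GFPhi, 1083 to 1161 CPM in GFPlow, and 276 and 591 CPM in WT, nearly all from Ccr7, which naive T cells express too, with Siglech at 0 in every library. Of the 5 dendritic markers tested, edgeR called 0 between GFPhi and GFPlow with all 8 libraries, against 2.26% of all genes. Their median log2 fold change was 0.34, and 3 of the 5 lay above 0, unlike Ccr7. An unadjusted p under 0.05 was reached by 3, against 11.6% of all genes. DESeq2 called 1, against 7.31%, and limma voom called 2 (its count over all genes is given at the end). Ccr7 was lower in GFPhi without overlap, with a log2 fold change of -0.93 ± 0.29 with all 8 libraries (edgeR adjusted p = 0.204) and -0.93 ± 0.11 with the 6 (adjusted p = 0.00149). The 7 natural killer cell markers summed to 183 to 362 CPM in GFPhi, 236 to 387 CPM in GFPlow, and 529 and 132 CPM in WT. Of the 6 tested, 1 was called as lower in GFPhi than in GFPlow, against 0.626% of all genes. The 6 platelet markers summed to 40.8 CPM in WT library 1 and to between 0.187 and 5.30 CPM in the other libraries. The CD8 and erythroid lists each summed to 37.7 CPM or less in every library. The part of these cells in the results was not tested.

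Immediate early genes respond to handling as well as to signalling, and Fos differed between library numbers within GFPhi and within GFPlow. Fos, chosen after its values were seen, stood at 153, 9.24 and 6.78 CPM in GFPhi libraries 1 to 3, at 195, 10.8 and 10.2 CPM in GFPlow libraries 1 to 3, with 10.6 and 4.22 CPM in WT libraries 1 and 2. Library 1 of both GFPhi and GFPlow was thus high. GFPhi library 1 was also the highest GFPhi library for Rel, Relb, Nfkb1, Nfkb2, Nfkbia, Tnfaip3 and Traf1, while GFPlow library 1 was the highest GFPlow library for none of the 10. Of the 11 immediate early and heat shock genes tested, 0 were called by edgeR between GFPhi and GFPlow with all 8 libraries (median log2 fold change 0.39). An unadjusted p under 0.05 was reached by 1, against 11.6% of all genes. DESeq2 called 1, against 7.31%, and limma voom called 2 (its count over all genes is given at the end). Nr4a1 was called as higher with the 6 libraries, as were 6.87% of all genes. The part of handling in the values of these libraries was not tested.

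Among 8303 genes with a mean log2 CPM above 3, those whose centred log2 CPM over the 8 libraries lay nearest to that of Rel were Prkca, Gphn, Arhgef12, Mgat5 and Dapp1, with root mean square differences of 0.135 to 0.174. Prkca, a protein kinase C gene, stood at 82.2 to 96.6 CPM in GFPhi, 35.2 to 44.1 CPM in GFPlow, and 80.8 and 87.3 CPM in WT. These genes were picked for their likeness to Rel, and no test was made of it.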

How the data were processed

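RNA was measured in 8 libraries of sorted mouse CD4 T cells, made with SMART-Seq HT and Nextera XT kits per the labels' protocols. The authors deposited raw counts for each Ensembl gene, in 1 table. The submitters' processing notes name GRCm38 as the build and R 4.0, edgeR, HTSeq 0.11.2, SAMtools 1.9 and HISAT2 2.1.0 as tools, while strand setting, annotation and filters of the counting are, in the sources used here, not given. Of 54837 identifiers, 54808 were matched to GENCODE vM21 for symbols, coordinates and merged exon lengths.

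Groups and library numbers came from the labels. Genes were kept by filterByExpr (18851), scaled by TMM and fitted in 1 edgeR 4.0.16 model of all 8 libraries (quasi-likelihood, robust, 5 residual degrees of freedom), with two-sided tests, Benjamini-Hochberg adjustment over all genes tested and a threshold of 0.05. SE is the log2 fold change divided by the root of the F statistic. CPM and RPKM use TMM-scaled library sizes, and merged exons of all transcripts overstate the length of single ones. Alternatives were other scaling and filters (none, or 5 CPM in 2 libraries), DESeq2 1.42.0, limma 3.58.1 voom with quality weights, no robust estimation, the library number as a block, only the groups compared, and each library left out. A further 5 were added after seeing that the WT libraries differed. R 4.3.3 and Python 3.11.15 were used, and the fit was tested on simulated data with 200 changed genes. Counts are reads without molecular identifiers, so they overstate the number of molecules.

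The 10 genes and the lists by role were chosen with earlier results of these data known. All 10 are named, with up to 5 genes per list by smallest adjusted p between GFPhi and GFPlow, the 2 most abundant markers of a cell type where values are given, and the 5 genes nearest to Rel.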

Additional observations from a re-analysis of the deposited data

How the results depend on the processing

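For GFPhi over GFPlow, the 10 fold changes kept their sign in all 22 alternatives, while the number of the 10 called differed between fits, and the cause was not tested. It was 1 with all 8 libraries, 2 with a filter of 5 CPM, 3 by DESeq2, 8 by limma voom with quality weights and 8 with only the groups compared. Over the fits that left out 1 library it ran from 0 to 8, with 0 for every GFPhi or GFPlow library and 8 for either WT library. Voom gave WT libraries 1 and 2 weights of 0.133 and 0.181, against 1.62 to 2.30 for the others, and was fitted to the same 18851 genes. For some fits named in this section the count over all genes is not given, and calls of the 10 there have no share beside them. These fits include upper quartile scaling, a filter of 5 CPM, no robust estimation, and, for GFPlow over WT, the block without WT library 1. Over all genes the count was 426, with 1375 by DESeq2, 2271 by voom, 2105 with only the groups compared and 105 to 1984 with 1 library left out.

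For GFPhi over WT, 0 of the 10 were called except with WT library 2 left out (0 to 8 over libraries left out). Over all genes the count was 0, with 1 without a filter, 320 by DESeq2 and 0 to 8234 with 1 library left out. For GFPlow over WT, 1 of the 10 was called, with 2 under upper quartile scaling, 0 without a filter, 3 with a filter of 5 CPM, 3 by DESeq2, 0 by voom, 2 without robust estimation, 0 with only the groups compared and 0 to 8 with 1 library left out. Over all genes the count was 623, with 3243 by DESeq2, 72 by voom, 33 with only the groups compared and 213 to 9002 with 1 library left out.

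Fits added after seeing the data gave, for GFPhi over GFPlow, 8 of the 10 and 3246 genes by DESeq2 without WT library 1, 8 and 2105 by voom without it, and 8 and 3107 by DESeq2 without WT library 2. For GFPhi over WT, they gave 72 genes by DESeq2 without WT library 1, and 8 of the 10 and 8941 genes by DESeq2 without WT library 2. For GFPlow over WT, they gave 6 and 2449 by DESeq2 without WT library 1, 5 and 1418 by voom without it, and 8 and 9578 by DESeq2 without WT library 2.

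Signs turned only against WT. For GFPhi over WT, the log2 fold change of Rel was -0.068 under upper quartile scaling, -0.019 with a filter of 5 CPM and -0.031 by voom, and that of Nfkbiz was 0.0097 without a filter. Over libraries left out, Rel ran from -0.12 to 0.31, Rela from -0.10 to 1.24, Nfkb1 from -0.21 to 0.83, Nfkbia from -0.64 to 0.0050, Nfkbid from -0.076 to 1.10, Nfkbiz from -0.10 to 0.070 and Traf1 from -0.11 to 1.33. Without WT library 1, DESeq2 gave Rel -0.12, Rela -0.10, Nfkb1 -0.21, Nfkbia 0.0043, Nfkbid -0.076, Nfkbiz 0.070 and Traf1 -0.11, and voom gave Rel -0.18, Rela -0.10, Nfkb1 -0.22, Nfkbid -0.091, Nfkbiz 0.037 and Traf1 -0.11. For GFPlow over WT, Nfkb2 was -0.083 under upper quartile scaling, -0.046 with a filter of 5 CPM and -0.028 by voom. Over libraries left out, Rela ran from -0.016 to 1.32, Relb from -0.40 to 1.198, Nfkb1 from -0.89 to 0.14, Nfkb2 from -0.64 to 1.26, Nfkbid from -0.23 to 0.94, Tnfaip3 from -0.33 to 0.36 and Traf1 from -0.79 to 0.64. Without WT library 1, DESeq2 gave Rela -0.018, Relb -0.40, Nfkb2 -0.64 and Nfkbid -0.23, and voom gave Rela -0.029, Relb -0.43, Nfkb2 -0.64 and Nfkbid -0.26. Without WT library 2, DESeq2 gave Nfkb1 0.090, Tnfaip3 0.31 and Traf1 0.59. The cause was not tested.

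The titles of GFPhi and GFPlow libraries carry the same numbers after the letter M, whose meaning is not stated. Deviations from the group means of same-numbered libraries correlated at 0.101, 0.0746 and 0.194, and the numbers were not taken as pairs. Whether they are pairs cannot be settled from the labels. Between these 2 groups each library correlated best with its own number. Xist was high in library 3 of both groups, and Fos in library 1 of both. These are hints of pairs from the data and not from the design. With the library number as a replicate block, 0 of the 10 were called in each comparison (Rel in GFPhi over GFPlow at 1.08 ± 0.24, edgeR adjusted p = 0.139), and 182, 0 and 158 genes for GFPhi over GFPlow, GFPhi over WT and GFPlow over WT. With the block and only the groups compared, 7 of the 10 and 1752 genes were called for GFPhi over GFPlow, 22 genes for GFPhi over WT, and 0 of the 10 and 217 genes for GFPlow over WT, where Tnfaip3 was 0.0049. With the block and without WT library 1, 7 of the 10 and 1744 genes were called for GFPhi over GFPlow, 4 genes for GFPhi over WT, and 5 of the 10 for GFPlow over WT. The count over all genes for GFPlow over WT in that fit is not given here, so these 5 calls have no share beside them. In that fit, for GFPhi over WT, Rel was -0.25, Rela -0.067, Nfkb1 -0.14, Nfkb2 -0.053, Nfkbid -0.037 and Traf1 -0.13. For GFPlow over WT in the same fit, Relb was -0.36, Nfkb2 -0.72 and Nfkbid -0.20.

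The limits are the 2 WT libraries, which differ from each other, and the sort, which sets GFPhi and GFPlow apart in Treg identity. These groups also differ in the level of Havcr2. Counts of the 10 genes ran from 556 to 44008 per library, and the p-values rest on 3, 3 and 2 libraries.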
